A study of Rattus norvegicus with 30 samples.

Results

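This comparison set rat hepatocytes given a high dose of methapyrilene against hepatocytes given a low dose of the same drug, so that both sides held drug and only its concentration differed. It used the 10 arrays, of 30 in the series, that were labelled 100 uM (5 arrays) or 3 uM (5 arrays) methapyrilene hydrochloride with harvest at 48 h. The cells were purchased frozen primary hepatocytes of male Sprague Dawley rats, plated on collagen under a Matrigel overlay and dosed from day 3. The vehicle was DMSO in every group. Cultures with DMSO alone (labelled 1%; 5 arrays) and the same 3 groups at 24 h (15 arrays) served for the other comparisons. The protocol describes the concentrated dosing stocks as being in 1% DMSO, so the share that reached the medium is uncertain. Each array held RNA of 1 well, described in the labels as an independent culture. No animals are named there. The tests therefore measure how much wells differ, and the number of arrays limits the precision.

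Methapyrilene is an antihistamine that was withdrawn from use because it caused liver tumours in rats. Hepatocytes oxidise it with cytochrome P450 enzymes, and in the rat liver it is known for injury around the portal tract and for damage to mitochondria. Primary hepatocytes hold most functions of the liver cell at plating, such as drug oxidation, bile acid synthesis, urea synthesis and secretion of plasma proteins, and lose part of them as the culture ages.

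The array levels were alike at both doses, but the deposited signals had a common scale. With 2% of values trimmed at each end, the mean signal was 1500.57 to 1500.64 on the 10 arrays. The comparison of medians that follows therefore cannot show whether the doses held equal amounts of RNA. Rises and falls are relative to the whole array. Array medians ran from 376 to 471 at 3 uM and from 400.2 to 433 at 100 uM (exact permutation test of the difference, two-sided p = 0.849). The 3' to 5' signal ratio of the beta-actin controls, a sign of shortened RNA where high, ranged from 2.34 to 2.95 at 3 uM and from 2.48 to 3.43 at 100 uM (exact permutation p = 0.476). The same ratio for GAPDH was 1.08 to 1.12 at 3 uM and 1.02 to 1.07 at 100 uM, and the doses did not overlap (exact permutation p = 0.00794, the smallest that 5 against 5 arrays can give). With the GAPDH ratio as a covariate, 2641 of the 2945 genes called below kept their call and direction (89.7%). The first principal component of the 10 arrays held 30.3% of the variance and separated the doses, with scores from 19.3 to 36.2 at 100 uM and from -29.8 to -17.4 at 3 uM. The second held 14.2% and set replicate 3 of 100 uM apart, at 43.4 against -15.8 to 10.98 in the other arrays. Without that array 2524 of the 2945 calls remained (85.7%), and leaving out each of the 10 arrays in turn kept between 2509 and 2654 of them.

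Relative to the whole array, RNA for a broad set of liver functions was lower at 100 uM than at 3 uM. RNA for part of the p53 target, cytosolic heat shock, proteasome, ribosome biogenesis and lysosomal genes was higher on the same scale. The counts of each group are given below. Of 10222 genes tested, 1656 were higher (16.2%) and 1289 lower (12.6%) at an adjusted p under 0.05. These shares are the background against which each gene group below is read. The falls were larger than the rises: 138 genes were called at least 2-fold lower (1.35%) and 53 at least 2-fold higher (0.518%). At 1.5-fold the counts were 414 lower (4.05%) and 248 higher (2.43%). The median log2 difference over all genes was 0.041, and with arrays centred on their medians the split of calls moved from 56.2% higher to 49.6% higher (1145 higher and 1163 lower). Among the called genes, 1178 higher (11.5% of the genes tested) and 961 lower (9.4%) had no overlap between the 5 arrays of each dose. In these cultures fewer cells that make an RNA and less of that RNA per cell cannot be told apart. Values below are mean MAS5 signals, which are linear array brightness, and log2 differences of 100 uM over 3 uM ± SE from the fit.

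**Figure D1:**
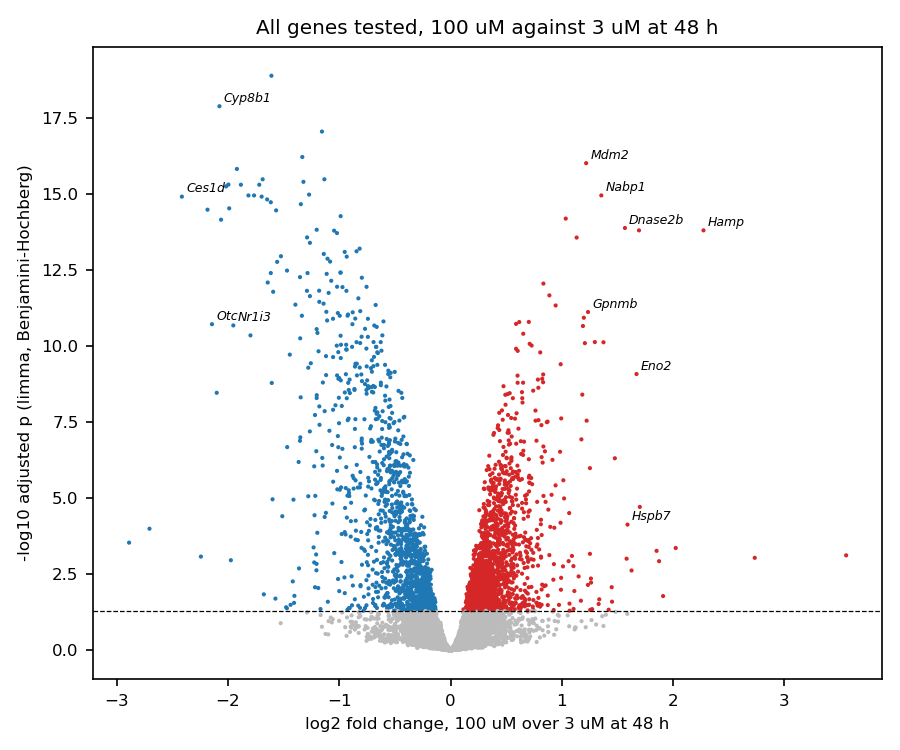
Each point is 1 of the 10222 genes tested, with the log2 fold change of 100 uM over 3 uM at 48 h on the x axis and the negative log10 of the limma adjusted p on the y axis. Red points are the 1656 genes called higher, blue points the 1289 called lower and grey points the rest, below the dashed line at 0.05. The larger changes lie mostly to the left, with Ces1d, Otc and Cyp8b1 beyond a log2 change of -2.

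The 15 largest changes each way were taken among called genes whose doses did not overlap and whose brighter dose had a mean signal of at least 1000, so that dimmer genes with larger fold changes are left out. Among them the largest rise was that of Hamp, which encodes hepcidin, the hormone that lowers iron export into the blood. Its signal was 1349, 1865, 1708, 1959 and 1979 in the 5 arrays at 3 uM and 7107, 6457, 9201, 11027 and 9437 in the 5 at 100 uM. All arrays at 100 uM lay above all arrays at 3 uM, with a log2 difference of 2.27 ± 0.14, adjusted p = 1.57e-14. Dennd5a, an activator of Rab GTPases in membrane traffic, read 1619, 1674, 1954, 1689 and 1957 in the 5 arrays at 3 uM and 5208, 6024, 4976, 6084 and 6520.1 in the 5 at 100 uM. The doses were again apart (1.69 ± 0.11, adjusted p = 1.57e-14). Eno2, the neuron-type isoform of the glycolytic enzyme enolase, rose from 1145 to 3575 (1.67 ± 0.16), and Nabp1, a single-stranded DNA binding protein of the DNA damage response, rose from 4062 to 10386 (1.35 ± 0.075). Mdm2, the ubiquitin ligase that degrades p53 and is itself a p53 target, had the smallest SE of the 15 largest rises. Its signal was 3582, 3660.4, 3599, 3705 and 3752 in the 5 arrays at 3 uM and 8819, 8329, 8466, 8669 and 8309 in the 5 at 100 uM (1.22 ± 0.06, adjusted p = 9.73e-17).

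Several of the other large rises were of genes known from lysosomes. Dnase2b, an acid DNase, was 5656, 6158, 6641, 5111 and 6717 in the 5 arrays at 3 uM and 16675, 18343, 17982, 17941 and 18381 in the 5 at 100 uM. No array of one dose reached the other dose (1.57 ± 0.097, adjusted p = 1.31e-14). Gpnmb, a glycoprotein of lysosome-related organelles, rose from 13552 to 31831 (1.24 ± 0.099), and Rragd, a GTPase that brings the growth regulator mTORC1 to lysosomes, rose from 1197 to 2931 (1.30 ± 0.11). Cd68, a lysosomal membrane protein used as a macrophage marker, rose from 896 to 2308 (1.37 ± 0.12). Il1r2, the decoy receptor for interleukin 1, rose from 1653 to 3864 (1.25 ± 0.18). Among the 15 largest rises were also Renbp, a sugar epimerase, from 939 to 2201 (1.26 ± 0.35), and the unnamed transcript 2810025M15Rikl, from 617 to 1640.1 (1.48 ± 0.20).

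For 5 of the 15 largest rises the mean of the DMSO arrays was above that of the 3 uM arrays. The gap was widest for Hspb7, Tmem14a and Serpina6. Hspb7, a small heat shock protein, was 535 in DMSO, 322 at 3 uM and 1039 at 100 uM (1.59 ± 0.29 against 3 uM and 0.90 ± 0.29 against DMSO). Its 3 uM level was below the median of the arrays, and it was not called when its probe sets were averaged (adjusted p = 0.0656). The other Hspb7 probe set past the filter was at -0.25 against 3 uM and was not called. Serpina6, the corticosteroid-binding globulin, was 547 in DMSO, 433 at 3 uM and 1013 at 100 uM (1.22 ± 0.14 and 0.88 ± 0.14). Tmem14a, a small membrane protein, differed by 1.23 ± 0.35 from 3 uM, and by 0.74 ± 0.35 from DMSO, which was not called (adjusted p = 0.108). The other 14 of these 15 genes were called higher against DMSO as well, as were 18.9% of all genes. Both comparisons use the same 100 uM arrays, so this is no independent support. None of the 15 was called between 3 uM and DMSO, where 0.0391% of all genes were.

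Under the same limits the largest fall was that of Ces1d, a carboxylesterase that splits drug and lipid esters. Its signal was 7123, 5875, 4058, 4884 and 3979.6 in the 5 arrays at 3 uM and 1045, 897, 963, 955 and 889.6 in the 5 at 100 uM. Every array at 3 uM was above every array at 100 uM, with a log2 difference of -2.41 ± 0.14, adjusted p = 1.22e-15. Slc10a1, the sodium-dependent transporter that takes bile salts up from the blood, read 4721, 4464, 3585, 3579.8 and 3441 in the 5 arrays at 3 uM and 895, 909, 939.7, 846 and 743 in the 5 at 100 uM. The doses did not overlap (-2.18 ± 0.13, adjusted p = 3.29e-15). Otc, the ornithine transcarbamylase of the urea cycle, read 2452, 2468, 1493, 1660.2 and 1780.3 in the 5 arrays at 3 uM and 698, 335, 479, 409 and 345 in the 5 at 100 uM. Replicate 1 was the highest of the 100 uM arrays, and all 5 lay below every 3 uM array (-2.14 ± 0.18, adjusted p = 1.91e-11).

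Cyp8b1, the sterol hydroxylase that sets how much cholic acid is made, was 4985, 4669.5, 4634, 4791 and 5461 in the 5 arrays at 3 uM and 1393, 1195, 1047, 1149.5 and 1055 in the 5 at 100 uM. The doses were far apart against the spread of either (-2.08 ± 0.087, adjusted p = 1.31e-18). Bhmt, which remethylates homocysteine with betaine, fell from 53592 ± 4996 to 13274 ± 1567 (SD, n = 5 each; log2 difference -2.02 ± 0.11). Nr1i3 encodes CAR, the nuclear receptor that switches on drug metabolism genes, and its signal was 2637, 2058, 1727, 1978 and 1591 in the 5 arrays at 3 uM and 691, 539.8, 411, 468 and 474 in the 5 at 100 uM. Its 100 uM arrays were all below its 3 uM arrays (-1.95 ± 0.16, adjusted p = 2.09e-11). Car5a, the mitochondrial carbonic anhydrase that feeds bicarbonate to the urea cycle, fell from 7095 to 1782 (-1.996 ± 0.11). Fabp1, the liver fatty acid binding protein, fell from 7527 to 2217 (-1.77 ± 0.099).

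The other falls in this group were those of enzymes. Aadac, a deacetylase of drugs, went from 4137 to 1044 (-1.99 ± 0.12), and Dpys of pyrimidine breakdown from 4000.3 to 1061 (-1.92 ± 0.097). Ftcd of histidine breakdown went from 20705 to 5909 (-1.82 ± 0.10). Among cytochromes P450, Cyp2a1 went from 6262 to 1694 (-1.88 ± 0.10) and Cyp4a1, a fatty acid hydroxylase, from 9816 to 2982 (-1.72 ± 0.092). The aldo-keto reductases Akr1c1 from 3458 to 822 (-2.06 ± 0.12) and AKR1C3l1 from 1166 to 339 (-1.80 ± 0.16) also fell, the latter to below the median of the arrays. The Cyp2a, Akr1c and sulfotransferase genes have close copies, and a probe set may read more than 1 of them. All 15 were also called lower against DMSO, by log2 differences from -2.77 to -1.62. Both comparisons use the same 100 uM arrays, so this is no independent support. Of all genes, 14.5% were called lower against DMSO. None of the 15 was called between 3 uM and DMSO, where 0.0391% of all genes were.

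**Figure D2:**
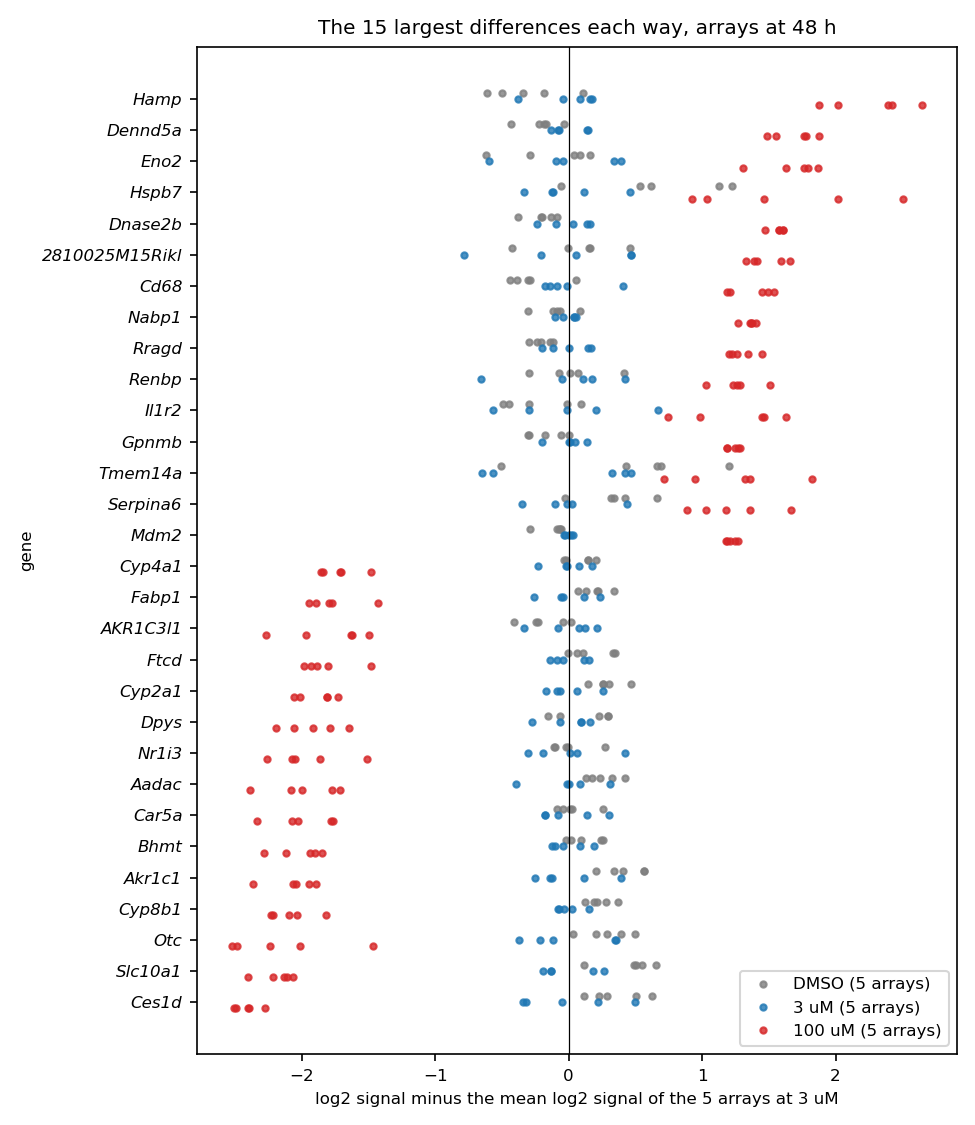
Each row is 1 of the 15 genes with the largest rise (top) or fall (bottom) among those without overlap and with a signal of at least 1000, and each point 1 array at 48 h, with the log2 signal minus the mean log2 signal of the 5 arrays at 3 uM on the x axis. Red points are 100 uM, blue points 3 uM and grey points DMSO, 5 arrays each. In every row the red points are apart from the blue ones, while the grey points overlap the red ones for Hspb7 and Tmem14a.

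The start regions of 4 of these genes are shown because they lead the 2 directions. They are the 250 bases before the annotated start in RefSeq's table for the rat assembly GRCr8, given 5' to 3' on the gene's strand. Hamp lies at chr1:95300272-95300521 (minus strand), Dennd5a at chr1:173428927-173429176 (minus strand), Ces1d at chr19:30046244-30046493 (plus strand) and Slc10a1 at chr6:106357945-106358194 (minus strand). Capitals mark matches to any of 7 motifs on either strand: the HNF1 core GTTAAT, the HNF4A motif CAAAGTCCA, the E-box CACGTG, the antioxidant response element TGACNNNGC, the heat shock element core GAANNTTC, the NF-Y box CCAAT and the cyclic AMP response element TGACGTCA.
Hamp: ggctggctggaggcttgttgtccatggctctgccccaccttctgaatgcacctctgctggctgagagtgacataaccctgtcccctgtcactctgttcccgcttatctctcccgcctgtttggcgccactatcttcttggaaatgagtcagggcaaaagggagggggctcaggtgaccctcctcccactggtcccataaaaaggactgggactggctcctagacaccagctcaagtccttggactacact
Dennd5a: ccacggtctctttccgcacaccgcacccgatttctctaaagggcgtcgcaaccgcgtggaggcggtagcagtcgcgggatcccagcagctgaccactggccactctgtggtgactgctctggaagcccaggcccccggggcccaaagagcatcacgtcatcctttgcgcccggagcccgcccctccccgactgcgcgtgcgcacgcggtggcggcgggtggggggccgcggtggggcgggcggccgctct
Ces1d: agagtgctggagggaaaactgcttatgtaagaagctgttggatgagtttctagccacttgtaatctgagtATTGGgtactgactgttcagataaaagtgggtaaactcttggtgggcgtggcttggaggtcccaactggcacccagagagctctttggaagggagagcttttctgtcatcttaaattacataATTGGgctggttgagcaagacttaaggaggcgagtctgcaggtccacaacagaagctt
Slc10a1: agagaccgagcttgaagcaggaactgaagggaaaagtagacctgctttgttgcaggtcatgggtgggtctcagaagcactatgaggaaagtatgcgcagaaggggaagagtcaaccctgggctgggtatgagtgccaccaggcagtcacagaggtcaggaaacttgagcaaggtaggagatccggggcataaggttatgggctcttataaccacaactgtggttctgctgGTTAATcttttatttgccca
The capitals in Ces1d are NF-Y boxes on the opposite strand, starting at -180 and -58 from the start, and those in Slc10a1 are an HNF1 core at -20. Hamp and Dennd5a hold none of these letters in this window.

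The same motifs were counted in the 8313 tested genes with a RefSeq start region, here from 250 bases before to 50 after the start. The HNF1 core, bound by factors that keep hepatocyte genes on, was in 7.30% of 1041 genes called lower, 4.35% of 1381 called higher and 4.42% of all. Among genes changed at least 2-fold it was in 14 of 107 lower (13.1%) and in 6 of 45 higher (13.3%). The E-box was in 12.4% of genes called higher, 7.21% of those called lower and 9.89% of all, and in 23 of 67 ribosome biogenesis genes (34.3%). The heat shock element core was in 5.87% of genes called higher and 5.63% of all, and in 11 of 35 heat shock and co-chaperone genes (31.4%). For the antioxidant response element the shares were 14.5% higher, 16.4% lower and 15.02% of all, and for the NF-Y box 39.1%, 39.5% and 38.2%. The cyclic AMP response element was in 3.98%, 1.92% and 3.21%, and the HNF4A motif in 0.435%, 0.961% and 0.361%. These shares are descriptions without a test, and a match is not a bound site.

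Drug metabolism genes were lower at 100 uM as a group. Of the xenobiotic cytochromes P450, 23 of 33 measured members fell and 3 rose, with a median of -0.54, against the 12.6% lower, 16.2% higher and median of 0.041 of all genes. Besides Cyp2a1, Cyp2a2, a male-biased steroid hydroxylase, went from 6296 to 2094 (-1.59 ± 0.12) and Cyp4f4, an eicosanoid hydroxylase, from 2019 to 741 (-1.47 ± 0.10). Against this direction rose Cyp3a9 from 824 to 1303 (0.67 ± 0.11) and Cyp3a2 from 1468 to 2276 (0.64 ± 0.11), both members of the family that oxidises many drugs. For Cyp3a9 the arrays were 1050.3, 749.9, 857, 707 and 753 in the 5 arrays at 3 uM and 1101, 1263, 1465, 1275 and 1409 in the 5 at 100 uM, without overlap. Of the hydrolases, oxidases and dehydrogenases, 19 of 27 measured members fell and 0 rose, with a median of -0.54. Of the conjugation enzymes, 25 of 45 measured members fell and 2 rose, with a median of -0.34. The largest falls among them were the hydroxysteroid sulfotransferase Sult2a6, from 740.4 to 182 (-2.10 ± 0.22), which ended below the median of the arrays, and the glutathione transferase Gstt3, from 4164 to 1332 (-1.65 ± 0.094). The transferases Gsto1 from 19146 to 23636 (0.30 ± 0.047) and Gstk1 from 13831 to 16137 (0.22 ± 0.059) rose, Gstk1 not with arrays centred on their medians (adjusted p = 0.0773).

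Bile acid synthesis and conjugation was the group with the highest share of called members. Of its genes, 16 of 18 measured members fell and 0 rose, with a median of -0.53. After Cyp8b1 the largest falls were those of the enzymes that couple bile acids to coenzyme A and then to taurine or glycine, Slc27a5 from 5273 to 1614 (-1.70 ± 0.095) and Baat from 8252 to 2662 (-1.61 ± 0.16). The Slc27a5 arrays were 6593, 5908, 4642, 4637 and 4586 in the 5 arrays at 3 uM and 1804, 1726, 1610.3, 1539.9 and 1389 in the 5 at 100 uM. At 3 uM against DMSO the median of the group was -0.093. Of the hepatocyte membrane transporters, 17 of 35 measured members fell and 1 rose, with a median of -0.21. Uptake carriers led the falls, with Slc10a1 as above and the organic anion carrier Slco1b2 from 1246 to 601 (-1.06 ± 0.14). Abcc9, a potassium channel subunit, was below the median of the arrays at both doses, so its log2 difference of -2.89 ± 0.59 rests on dim signals. The single rise was that of Abcc2, the canalicular pump for conjugated bilirubin and drugs. Its signal was 31284, 35050.3, 32458, 30044 and 28128 in the 5 arrays at 3 uM and 41765, 43951, 40759, 41872 and 39006 in the 5 at 100 uM, with no overlap (0.40 ± 0.063, adjusted p = 5.05e-06).

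Amino acid and one-carbon breakdown held the most called members of any group. Here 53 of 62 measured members fell and 0 rose, with a median of -0.58. After Bhmt and Ftcd the largest fall was that of Gnmt, the glycine methyltransferase that uses up methyl groups, from 14418 to 4695 (-1.62 ± 0.11). The Gnmt arrays were 14549, 16587, 13289, 14305 and 13362 in the 5 arrays at 3 uM and 4484, 4519.9, 4949, 4611 and 4911 in the 5 at 100 uM. All 5 at 100 uM lay below those at 3 uM. Of the urea cycle and ammonia handling genes, 7 of 13 measured members fell and 1 rose, with a median of -0.23. Otc and Car5a led, and Arg1, arginase, went from 67105 to 42271 (-0.66 ± 0.075). Cps1, which opens the cycle, went from 63957 to 48396 (-0.40 ± 0.081). Asl, argininosuccinate lyase, rose from 16835 to 19824 (0.24 ± 0.06), but not with arrays centred on their medians (adjusted p = 0.0641).

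Glucose and lipid genes fell too. For gluconeogenesis and liver glucose handling, 16 of 28 measured members fell and 3 rose, with a median of -0.36. Pc, pyruvate carboxylase, went from 3437 to 1202 (-1.52 ± 0.10) and Gys2, liver glycogen synthase, from 5013 to 1940.2 (-1.35 ± 0.17). Pfkfb3, an activator of glycolysis, rose from 1290.0 to 2207 (0.80 ± 0.17). Of the fatty acid oxidation, ketogenesis and PPAR-alpha target genes, 34 of 44 measured members fell and 1 rose, with a median of -0.39. Behind Fabp1 and Cyp4a1 came Ehhadh of peroxisomal oxidation, from 1316 to 566 (-1.22 ± 0.17). Pdk4, which blocks glucose oxidation, was the 1 rise (0.24 ± 0.086), and it was not called with centred arrays, with averaged probe sets or without any one of 4 of the 10 arrays.

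Lipogenic genes fell more often than all genes did. Of the genes for making fatty acids and triglycerides, 11 of 26 measured members fell and 4 rose, with a median of -0.22. These are 42.3% lower and 15.4% higher, against 12.6% and 16.2% of all genes, so the share of rises was near the background. The lipogenic regulator Thrsp went from 36493 to 19039.8 (-0.93 ± 0.10) and ATP citrate lyase, Acly, from 25642 to 15655 (-0.71 ± 0.073). Gpam, which starts triglyceride synthesis, rose from 2670.0 to 3769.5 (0.51 ± 0.091). A smaller share of the cholesterol genes was called. Of these, 7 of 20 measured members fell and 2 rose, with a median of -0.077, with Hsd17b7 from 3108 to 2000.2 (-0.64 ± 0.091) and Dhcr7 from 14870.3 to 10562 (-0.49 ± 0.086) lower and Cyp51 from 9362 to 11377 (0.28 ± 0.079) higher. Cyp51 was not called when its probe sets were averaged (adjusted p = 0.289). The other Hsd17b7 probe set past the filter was at -0.039 and was not called. Of the apolipoprotein and lipoprotein assembly genes, 9 of 19 measured members fell and 1 rose, with a median of -0.22. Lcat, which esterifies cholesterol in plasma, went from 3111 to 1535 (-1.02 ± 0.076) and Apoc4 from 10989 to 5730.1 (-0.93 ± 0.063).

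RNA for secreted proteins fell in part, while Alb, Ttr and Apoa1 did not pass the test. Of the coagulation factors and inhibitors, 20 of 25 measured members fell and 0 rose, with a median of -0.34. Hrg, histidine-rich glycoprotein, was 20810.2, 16641, 15293, 13715 and 14936 in the 5 arrays at 3 uM and 6871, 6769, 6314, 6017 and 5801 in the 5 at 100 uM. The doses did not overlap (-1.35 ± 0.078, adjusted p = 2.17e-15). Klkb1, plasma prekallikrein, went from 1652 to 618 (-1.36 ± 0.19) and Serpinf2, the plasmin inhibitor, from 4159 to 1924 (-1.12 ± 0.089). Of the acute phase and complement genes, 24 of 40 measured members fell and 3 rose, with a median of -0.35. The metalloreductase Steap4 went from 14623 to 4636 (-1.64 ± 0.12) and C-reactive protein, Crp, from 23305 to 9125 (-1.35 ± 0.12). Against this direction Hamp rose, as did the protease inhibitor Serpina3c. Its signal was 3648, 4521, 4725, 5722 and 4638 in the 5 arrays at 3 uM and 9871, 9707, 10463, 11646 and 10944 in the 5 at 100 uM. No array of one dose reached the other (1.19 ± 0.10, adjusted p = 2.19e-11).

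Of the plasma carriers and serpins, 13 of 24 measured members fell and 3 rose, with a median of -0.18. Azgp1, a lipid-mobilising glycoprotein, went from 15965 to 6921 (-1.20 ± 0.10) and Ttpa, the vitamin E transfer protein, from 8455 to 3816 (-1.14 ± 0.089). Agt, angiotensinogen, rose from 13179 to 16569.8 (0.33 ± 0.081). Alb, albumin, was 79086 ± 15639 at 3 uM and 78133 ± 7625 at 100 uM (SD, n = 5 each), and the 95% interval of its log2 difference ran from -0.26 to 0.26. Ttr, transthyretin, was at -0.11 ± 0.10, adjusted p = 0.476 (95% interval from -0.33 to 0.10). Apoa1 was at -0.055 ± 0.098, adjusted p = 0.735.

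Regulators of the hepatocyte program were lower in part. Of the hepatocyte transcription factors and nuclear receptors, 17 of 36 measured members fell and 2 rose, with a median of -0.23. After Nr1i3, the pioneer factor Foxa1 went from 696 to 341 (-1.06 ± 0.18), ending below the median of the arrays, and Onecut2 from 2199.7 to 1294 (-0.77 ± 0.09). The clock receptor Rora was higher on its brightest probe set (0.51 ± 0.098) and at -0.014 when its probe sets were averaged. Genes of both zones of the liver lobule were lower. Of the periportal genes, 15 of 26 measured members fell and 1 rose, with a median of -0.35, and of the pericentral genes, 15 of 25 measured members fell and 0 rose, with a median of -0.35. Cyp2e1, a pericentral P450, was 1795, 1163, 1330.1, 1318 and 1075 in the 5 arrays at 3 uM and 563, 671, 832, 759 and 641 in the 5 at 100 uM. The doses did not overlap (-0.94 ± 0.13, adjusted p = 9.49e-07).

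Of the growth hormone, IGF and sex-biased liver genes, 9 of 25 measured members fell and 2 rose, with a median of -0.13. The largest falls were those of Sult1e1 (log2 difference -1.60) and the male-biased Cyp2a2, given above. Cyp2c12, which is biased to females, went from 854 to 389 (-1.13 ± 0.13), to below the median of the arrays. The 2 rises were those of Cyp3a2, given above, and the male-biased Cyp2c13, from 1715 to 2468 (0.53 ± 0.09). Male-biased genes thus went both ways. Of the fetal, progenitor and preneoplastic markers, 6 of 18 measured members fell and 1 rose, with a median of -0.15. Sox4, a progenitor factor, went from 1285 to 698 (-0.91 ± 0.14). The other Sox4 probe set past the filter was at -0.11 and was not called. Aldoa, the non-liver aldolase, rose from 34879 to 39542 (0.18 ± 0.047), but not with centred arrays (adjusted p = 0.116).

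**Figure D3:**
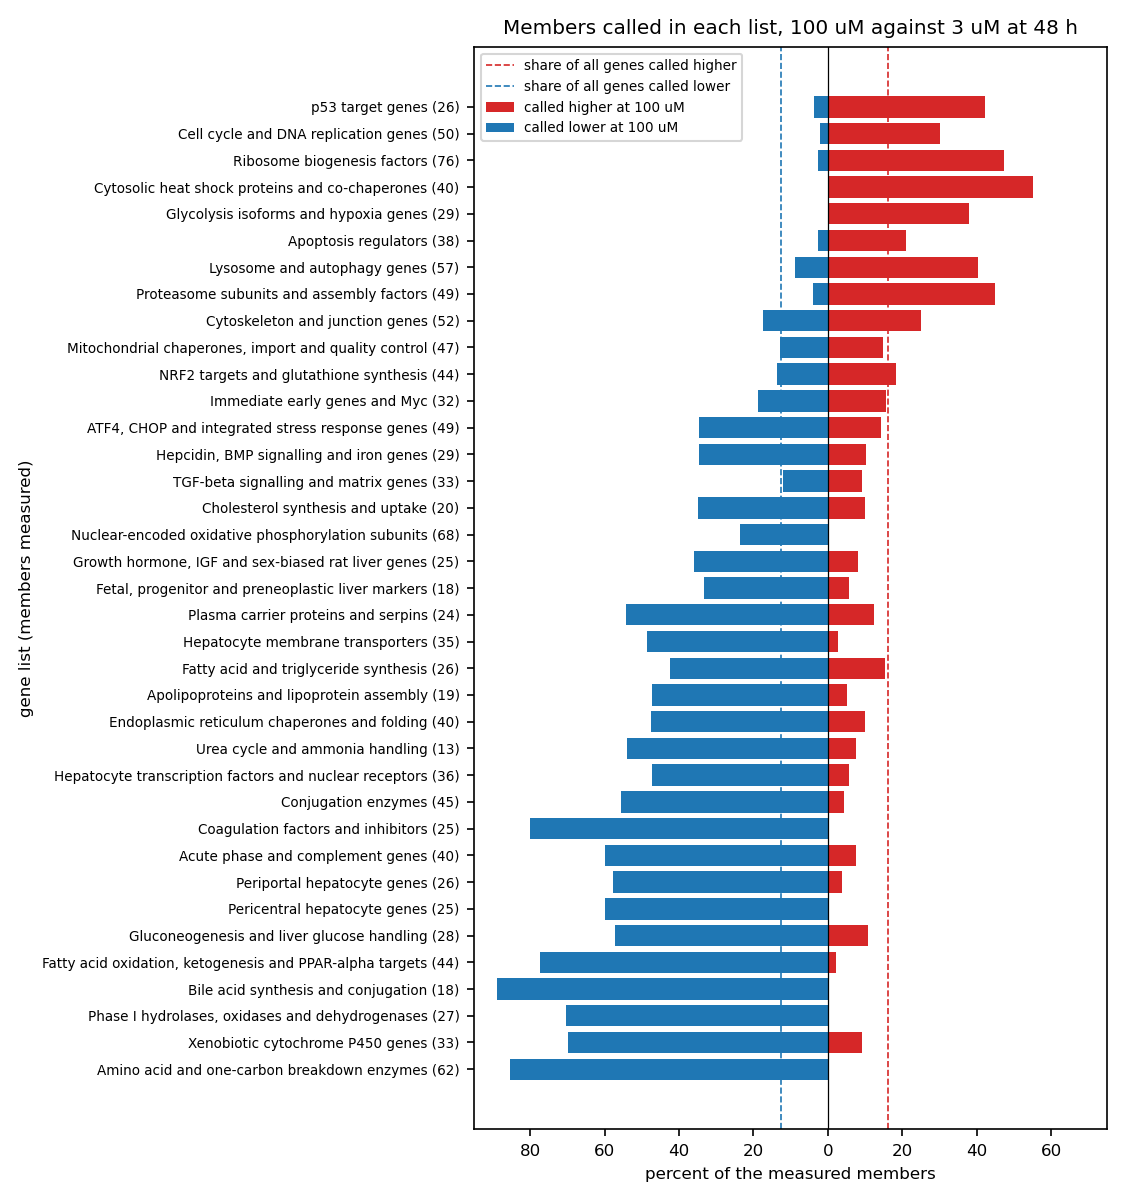
Each row is a gene list with its number of measured members, and the bars give the percent of them called higher (red, to the right) or lower (blue, to the left) at 100 uM against 3 uM at 48 h. Dashed lines are the shares of all genes, 16.2% higher and 12.6% lower, and rows are ordered by the median log2 difference. Amino acid breakdown is at the bottom with 53 of 62 lower, and p53 targets are at the top with 11 of 26 higher.

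Among the groups that rose, p53 targets had the highest median. Of these, 11 of 26 measured members rose and 1 fell, with a median of 0.28. Sfn, stratifin, which holds the cell cycle, was 2489.6, 2690.1, 2824, 3202 and 2376 in the 5 arrays at 3 uM and 5917, 6501, 5670.1, 7321 and 5723 in the 5 at 100 uM. The doses did not overlap (1.20 ± 0.098, adjusted p = 1.17e-11). Gdf15, a stress hormone of the TGF-beta family, went from 764 to 1399 (0.90 ± 0.17), with overlap of its arrays. Sesn1, another p53 target, fell from 2957 to 2174 (-0.45 ± 0.10). Of the apoptosis regulators, 8 of 38 measured members rose and 1 fell, with a median of 0.15, a share of 21.1% higher that is near the background of 16.2%. The rises included the survival factor Bcl2l1, from 2121 to 3138 (0.57 ± 0.10), and its antagonist Bad, from 1157 to 1727 (0.58 ± 0.13). Aifm1, the mitochondrial apoptosis-inducing factor, fell from 8755 to 7196 (-0.28 ± 0.055).

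Heat shock genes of the cytosol, proteasome genes and ribosome biogenesis factors rose by small amounts in many members. Of the cytosolic heat shock proteins and co-chaperones, 22 of 40 measured members rose and 0 fell, with a median of 0.21. Hspb1, a small heat shock protein, was 5589, 5566, 4249, 4994 and 6766 in the 5 arrays at 3 uM and 8408, 8156, 10764, 10224 and 10098 in the 5 at 100 uM. All 100 uM arrays lay above those at 3 uM (0.82 ± 0.11, adjusted p = 4.47e-07). Chordc1, an Hsp90 co-chaperone, went from 6265 to 8624 (0.46 ± 0.052) and Hsph1, an exchange factor of Hsp70, from 2663 to 3949 (0.57 ± 0.12). Averaging the probe sets of Hsph1 ended its call (adjusted p = 0.078). Of the proteasome genes, 22 of 49 measured members rose and 2 fell, with a median of 0.13, among them the deubiquitinase Uchl5 from 5541 to 7543 (0.45 ± 0.062) and the subunit Psmd6 from 11849.5 to 15599 (0.40 ± 0.063). Of the ribosome biogenesis factors, 36 of 76 measured members rose and 2 fell, with a median of 0.24. Sdad1 went from 1716 to 2821 (0.72 ± 0.11) and Wdr12 of the large subunit from 3327 to 5130.5 (0.63 ± 0.08), while Rcl1 fell from 16294 to 11105 (-0.55 ± 0.066). With arrays centred on their medians the counts of rises were 15 for heat shock, 10 for the proteasome and 22 for ribosome biogenesis, beside 1145 of all 10222 genes, and the medians were 0.19, 0.11 and 0.22.

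Of the lysosome and autophagy genes, 23 of 57 measured members rose and 5 fell, with a median of 0.13. Beside Dnase2b and Cd68, the membrane protein Cd63 rose from 15250.2 to 26662 (0.81 ± 0.074). The Cd63 arrays were 14046, 15532, 16085, 15587 and 15001 in the 5 arrays at 3 uM and 24755, 27319, 26403, 28178 and 26656 in the 5 at 100 uM, without overlap. The protease Ctsc fell from 11009.9 to 8982 (-0.29 ± 0.07). Of the glycolysis isoform and hypoxia genes, 11 of 29 measured members rose and 0 fell, with a median of 0.18. Behind Eno2 and Pfkfb3 came Ndrg1, a hypoxia and differentiation gene, from 6003 to 9876 (0.73 ± 0.11). For the cell cycle and DNA replication, 15 of 50 measured members rose and 1 fell, with a median of 0.24. The larger rises were of dim genes: Ube2t, a ubiquitin-conjugating enzyme of DNA repair, and Mcm4 of the replicative helicase were below the median of the arrays at 3 uM, with log2 differences of 2.73 ± 0.62 and 0.99 ± 0.26. Tk1, thymidine kinase, was brighter and fell from 1586 to 994 (-0.68 ± 0.093).

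Members of the integrated stress response group went both ways, but its share of falls exceeded the background. Of the endoplasmic reticulum group 47.5% fell, against 12.6% of all genes. Of the ATF4, CHOP and integrated stress response genes, 7 of 49 measured members rose and 17 fell, with a median of -0.032. These are 14.3% higher and 34.7% lower, against 16.2% and 12.6% of all genes. Ddit3, which encodes CHOP itself, was 3048, 2594, 2950.1, 3264 and 3172 in the 5 arrays at 3 uM and 6009, 7196, 6365, 6599 and 6751 in the 5 at 100 uM. The doses did not overlap (1.13 ± 0.072, adjusted p = 2.71e-14). In the opposite direction Cth, which makes cysteine, went from 14756 to 6702 (-1.14 ± 0.076), the factor Atf5 from 12789.6 to 7648 (-0.74 ± 0.076) and the hormone Fgf21 from 4285 to 2769 (-0.60 ± 0.12). Of the endoplasmic reticulum chaperones and folding genes, 19 of 40 measured members fell and 4 rose, with a median of -0.22. Ero1b, a disulfide-forming oxidase, went from 3484 to 2269 (-0.63 ± 0.11) and Fkbp11, a proline isomerase of secretory cells, from 10499 to 7044 (-0.58 ± 0.059). Of the NRF2 targets and glutathione genes, 8 of 44 measured members rose and 6 fell, with a median of -0.005, close to the background in both directions. The glutathione peroxidase Gpx2 rose from 13756 to 19745 (0.52 ± 0.082) and Gclm, a subunit of the enzyme that limits glutathione synthesis, from 28526 to 34577 (0.28 ± 0.052), while the efflux pump Abcc3 fell from 5665 to 4115 (-0.46 ± 0.077).

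Mitochondrial genes changed by small amounts. Of the mitochondrial chaperone, import and quality control genes, 7 of 47 measured members rose and 6 fell, with a median of 0.033, again close to the background. Twnk, the helicase of mitochondrial DNA, went from 1015 to 1409 (0.47 ± 0.11) and Pink1, a kinase that marks damaged mitochondria, from 1869 to 1325 (-0.49 ± 0.087). Of the nuclear-encoded oxidative phosphorylation subunits, 16 of 68 measured members fell and 0 rose, with a median of -0.095. Ndufs3 of complex I went from 14916 to 12028 (-0.31 ± 0.07) and Sdha of complex II from 12668 to 10787 (-0.23 ± 0.049). Their count of falls ranged from 7 to 33 over the alternatives.

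Of the immediate early genes, 5 of 32 measured members rose and 6 fell, with a median of -0.031. These are 15.6% higher and 18.8% lower, against 16.2% and 12.6% of all genes. Fosl1 rose from 536 to 1085 (1.01 ± 0.15) and Jun, its partner in AP-1, fell from 9616 to 7793 (-0.30 ± 0.063). Of the TGF-beta signalling and matrix genes, 4 of 33 measured members fell and 3 rose, with a median of -0.072. Their shares of 12.1% lower and 9.09% higher did not exceed the background of 12.6% and 16.2%. Lox, which crosslinks collagen, was 14442, 15655, 19446, 17635 and 18468 in the 5 arrays at 3 uM and 7678, 8185, 7022, 6899 and 7294 in the 5 at 100 uM. Its doses did not overlap (-1.20 ± 0.13, adjusted p = 4.11e-09), and Tgfbi went from 5406 to 3424 (-0.66 ± 0.06). Of the cytoskeleton and junction genes, 13 of 52 measured members rose and 9 fell, with a median of 0.052. The calcium binding protein S100a6 rose from 20838 to 30864 (0.57 ± 0.11) and lamin A/C, Lmna, from 2887 to 4259 (0.56 ± 0.083), while the gap junction protein Gjb1 fell from 12129 to 6859 (-0.82 ± 0.079) and vimentin, Vim, from 12457 to 8251 (-0.59 ± 0.092). The other Lmna probe set past the filter was at -0.034 and was not called. Of the hepcidin, BMP signalling and iron genes, 10 of 29 measured members fell and 3 rose, with a median of -0.071. The ferroxidase ceruloplasmin, Cp, went from 16641 to 10469 (-0.68 ± 0.11) and the BMP target Id4 from 3098 to 2071 (-0.61 ± 0.14), both opposite to Hamp. The 3 other Id4 probe sets past the filter were at -0.39 to -0.15 and were not called.

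The mean signals of all 10 measured hepatocyte markers were above the median of the arrays at both doses. Of these markers 5 fell and 0 rose, and their summed signal was 452252 to 601020.0 at 3 uM and 431689 to 486427 at 100 uM. The asialoglycoprotein receptor genes Asgr1 from 10078 to 6897 (-0.55 ± 0.065) and Asgr2 from 4541 to 2501 (-0.86 ± 0.07) were among those that fell, as was Apob from 42748 to 26166 (-0.71 ± 0.089), though not when the probe sets of Apob were averaged (adjusted p = 0.11). The other Apob probe set past the filter was at 0.27 and was not called. Of 11 measured Kupffer cell and leukocyte markers, Cd68 and Cd5l rose, Cd5l in 12 of 24 alternatives, Cd14 and Lyz2 fell, 7 were not called, and 5 of the 11 were below the median of the arrays at both doses. Their summed signal was 18456 to 22383 at 3 uM and 14664 to 18739 at 100 uM. Cd14, the lipopolysaccharide co-receptor, went from 9576 to 5129.6 (-0.90 ± 0.096), while the defining Kupffer marker Clec4f was below the median of the arrays at both doses. Its log2 difference was 0.42 ± 0.34, adjusted p = 0.398. Of 8 stellate cell and fibroblast markers Des rose (0.65 ± 0.21), but not without replicate 2 of 3 uM (adjusted p = 0.0558), and the others were not called. Their summed signal was 4178 to 6084 at 3 uM and 4107 to 4907 at 100 uM. None of 3 sinusoidal endothelial markers was called (summed 1484 to 1943 at 3 uM and 1597 to 2074 at 100 uM). Of 5 cholangiocyte markers Epcam fell, by -0.17 ± 0.057, but not with centred arrays or without replicate 3 or 4 of 100 uM or replicate 2 of 3 uM (adjusted p up to 0.0887), and the summed signal of the 5 was 22357 to 24748 at 3 uM and 20453 to 22644 at 100 uM. The part of these other cells in the results was not tested.

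The low dose was itself set against the vehicle. At 48 h, 3 uM differed from DMSO at 4 genes of 10222 (0.0391%), with 522 at an unadjusted p under 0.05 by the same limma fit. The difference of 100 uM from DMSO is the sum of both steps, and these comparisons share arrays. Against DMSO, 100 uM was higher at 1932 genes (18.9%) and lower at 1483 (14.5%), or 33.4% in all. Cyp1a2, a P450 of aryl hydrocarbon metabolism, was 8837, 8907, 8361, 8965 and 10527 in the 5 DMSO arrays, and 5659, 6119.6, 5509, 5499 and 5417 in the 5 arrays at 3 uM and 3877, 3700.2, 2929, 3915 and 4148 in the 5 at 100 uM. Both steps were downward without overlap, by -0.69 ± 0.096, adjusted p = 0.00036 from DMSO to 3 uM and -0.61 ± 0.096, adjusted p = 6.65e-06 from 3 uM to 100 uM. Cyp1a1, its relative, was 31748 in DMSO, 23764 at 3 uM and 13279 at 100 uM, with steps of -0.42 ± 0.08 and -0.84 ± 0.08.

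The other pair rose at 3 uM and showed no further step that passed the test. Rrp9, a ribosomal RNA processing factor, was 1047 in DMSO, 1839 at 3 uM and 1957 at 100 uM. Its first step was 0.82 ± 0.14, adjusted p = 0.00488, and its second 0.092 ± 0.14, adjusted p = 0.676 (95% interval from -0.19 to 0.37). Ift52, a protein of transport in cilia, was 2775, 3832 and 3683 in the same order, with steps of 0.49 ± 0.094 and -0.056 ± 0.094 (95% interval of the second from -0.25 to 0.14). Of 26 settings of the analysis, Cyp1a2 was called between 3 uM and DMSO in 26, Rrp9 in 25, Cyp1a1 in 13 and Ift52 in 11.

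**Figure D4:**
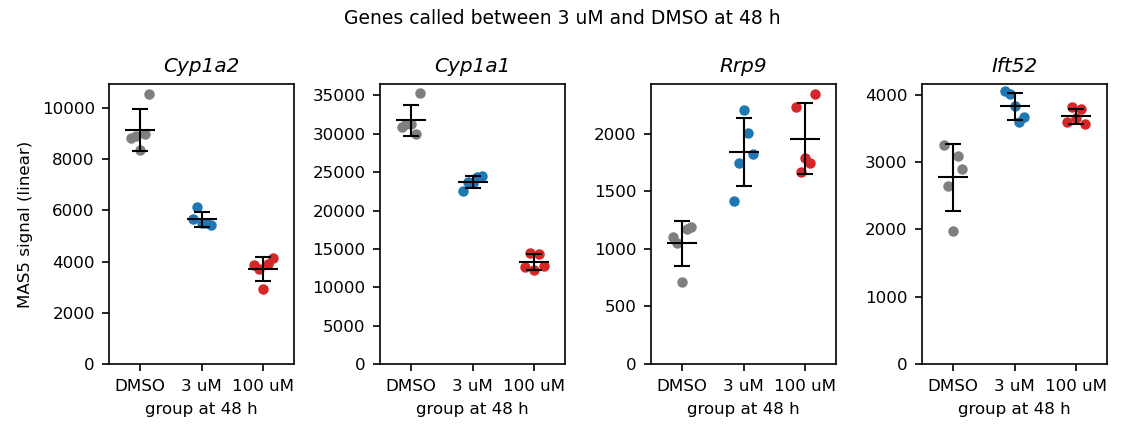
MAS5 signal on a linear scale in the DMSO, 3 uM and 100 uM arrays at 48 h for the 4 genes called between 3 uM and DMSO, with 1 point per array and bars for the mean and SD of 5. Cyp1a2 and Cyp1a1 step down at each dose, while Rrp9 and Ift52 are higher at 3 uM than in DMSO and overlap between 3 uM and 100 uM.

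The same dose step was measured at 24 h in 10 other arrays, of which replicates 1, 2 and 3 of 3 uM stand apart, with beta-actin 3' to 5' ratios of 3.93, 5.10 and 5.30. Unlike at 48 h, 3 uM differed from DMSO at many genes at 24 h, with 306 higher and 125 lower. These counts were 0 and 1 with the beta-actin ratio as a covariate, and 1597 and 1292 with array weights. The weights were 1.39, 1.75 and 1.03 for replicates 1, 2 and 3 of 3 uM, and 0.24 and 0.23 for replicates 4 and 5. The weighted fit therefore leans on the 3 arrays with high ratios. At 24 h, 2021 genes were higher (19.8%) and 1949 lower (19.1%) at 100 uM, or 38.8% in all, or 1493 and 1262 with replicates 4 and 5 of 3 uM alone. Of the 48 h calls, 1048 higher (63.3% of them, and 51.9% of the 24 h calls) and 943 lower (73.2% and 48.4%) had the same call at 24 h, and 24 had the opposite call. With replicates 4 and 5 alone these were 921 higher (55.6% and 61.7%), 905 lower (70.2% and 71.7%) and 3 opposite. Over the 10222 genes, which are no independent samples, the log2 differences at both times had a Pearson r of 0.642 (0.641 with replicates 4 and 5 alone).

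All 15 of the largest falls at 48 h were called lower at 24 h, and 12 of the 15 largest rises were called higher (10 with replicates 4 and 5 alone). No change between the times was called for Cyp8b1 (-1.92 at 24 h and -2.08 at 48 h), Bhmt (-2.12 at 24 h and -2.02 at 48 h), Nr1i3 (-2.13 at 24 h and -1.95 at 48 h) and Mdm2 (1.21 at 24 h and 1.22 at 48 h). They were larger at 48 h for Otc (-0.65 at 24 h and -2.14 at 48 h), Fabp1 (-0.53 at 24 h and -1.77 at 48 h), Ces1d (-1.09 at 24 h and -2.41 at 48 h) and Hamp (1.23 at 24 h and 2.27 at 48 h). The test of the change between the times called 693 genes (6.78%), 415 upward (4.06%) and 278 downward (2.72%), but 44 and 59 with replicates 4 and 5 of 3 uM alone and 23 and 38 with the beta-actin ratio as a covariate. The changes of Otc, Fabp1, Ces1d and Hamp were called in all 3 of these fits.

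**Figure D5:**
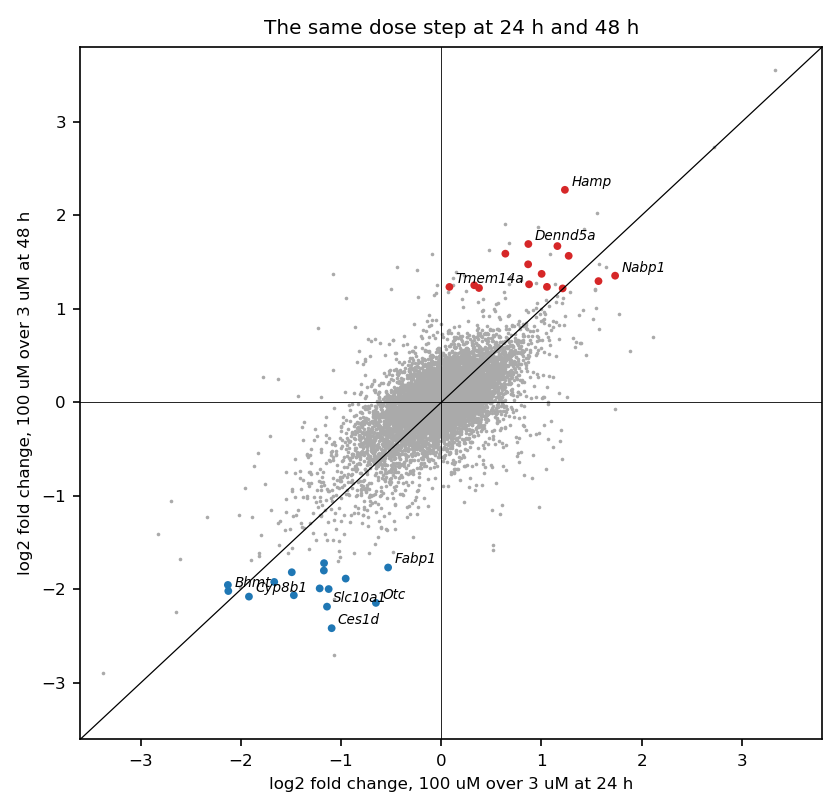
Each grey point is 1 of 10222 genes, with the log2 fold change of 100 uM over 3 uM at 24 h on the x axis and at 48 h on the y axis. Red and blue points are the 15 largest rises and falls at 48 h, and the diagonal marks equal change. Hamp, Otc, Fabp1 and Ces1d lie farther from 0 at 48 h than at 24 h, and Bhmt and Cyp8b1 lie near the diagonal.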

How the data were processed

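RNA of 30 hepatocyte cultures was extracted with Tri-Reagent and RNeasy, biotin-labelled and measured on a rat whole-genome array, per the labels' protocols. The deposited values are intensity, made by the authors with MAS5 per the submitters' processing notes. The version is not given in the sources used here. Of 31099 probe sets 20826 had 1 gene symbol, 436 several, 9780 none and 57 were controls. Values were log2 transformed without a pseudocount. Probe sets above the array median on at least 5 of 30 arrays were kept (17555), with the brightest per gene (10222 genes). limma 3.58.1 in R 4.3.3 fitted a mean per group to all arrays (24 residual degrees of freedom, eBayes with a trend), two-sided, and Benjamini-Hochberg adjustment ran over all genes. A gene was called, and is said to rise or fall, at an adjusted p under 0.05. Genes named are the 15 largest changes each way without overlap and with a signal of at least 1000 in the brighter dose, up to 3 called members of each list in its main direction and 2 in the other, those called at 3 uM, the markers, and list genes called in the opposite direction at 24 h. The members and lists were chosen with earlier results of these data known. The fit was tested on simulated data. Alternatives changed the scaling, filter, probe sets, variance model, arrays, covariates and thresholds.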

Additional observations from a re-analysis of the deposited data

Results flagged for a closer look

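Among the 5 arrays of a dose at 48 h, 5 of 78 sets of values had 1 array far from the others by Dixon's test. Chance alone gives about 1 in 20, or 3.9 of 78. Replicate 3 of 100 uM was high on the first 2 principal components of the 10 arrays, at 36.2 and 43.4. Replicate 2 of 100 uM had the lowest GAPDH 3' to 5' ratio of its group, 1.02. Cd68 read 1176 in replicate 5 of 3 uM, above the other 4, and Dnase2b read 16675 in replicate 1 of 100 uM, below the other 4.

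For 15 of the genes looked at, the log2 difference of 100 uM from 3 uM changed between 24 h and 48 h. Each change is given with, in brackets, its value with replicates 4 and 5 of 3 uM at 24 h alone. Hamp changed by 1.04 (1.19, adjusted p = 0.00911) and Dennd5a by 0.82 (0.66, adjusted p = 0.0538). Il1r2 changed by 0.92 (1.10, adjusted p = 0.0632), Serpina6 by 0.85 (1.04, adjusted p = 0.0251) and Cyp1a1 by 0.37 (0.64, adjusted p = 0.000624). Nabp1 changed by -0.38 (-0.33, adjusted p = 0.243). Ces1d changed by -1.32 (-1.17, adjusted p = 0.00712), Slc10a1 by -1.04 (-0.75, adjusted p = 0.049) and Otc by -1.49 (-1.36, adjusted p = 0.0236). Akr1c1 changed by -0.59 (-0.39, adjusted p = 0.46), Car5a by -0.87 (-0.66, adjusted p = 0.0452) and Aadac by -0.78 (-0.61, adjusted p = 0.125). Cyp2a1 changed by -0.93 (-0.99, adjusted p = 0.00163), Fabp1 by -1.24 (-0.97, adjusted p = 0.0003) and Cyp4a1 by -0.55 (-0.58, adjusted p = 0.0728). A negative value is a fall that was larger at 48 h, except for Nabp1, whose rise was smaller at 48 h, and for Cyp1a1 the positive value is a smaller fall at 48 h. With the beta-actin ratio as a covariate in place of leaving out arrays, the changes of Hamp, Il1r2, Serpina6, Cyp1a1, Ces1d, Otc, Car5a, Cyp2a1 and Fabp1 were called, with adjusted p from 0.000825 to 0.0389. Those of Slc10a1 (adjusted p = 0.0983), Dennd5a (0.0955), Aadac (0.103), Cyp4a1 (0.129), Nabp1 (0.248) and Akr1c1 (0.39) were not.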

How the results depend on the processing

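The 1656 higher and 1289 lower calls of 100 uM against 3 uM at 48 h stayed within 1.5 times under most alternatives; leaving out each array in turn gave 1430 to 1570 higher and 1149 to 1269 lower. An adjusted p under 0.01 left 1056 higher, and a 1.5-fold minimum left 248 higher and 414 lower. For 3 uM against DMSO, each direction had 1 call with centred arrays, an adjusted p under 0.01, a 1.5-fold minimum or each probe set apart. Calls higher also numbered 1 without a trend, with the 15 arrays of 48 h or with runs of 6 arrays as a block, and the 10 arrays alone gave 0 higher and 4 lower; leaving out single arrays gave 1 to 2 each way. For 100 uM against DMSO, centring left 1246 higher, and a 1.5-fold minimum 347 higher and 510 lower. At 24 h, centring left 1177 higher, a 1.5-fold minimum 366 higher and 635 lower, the beta-actin ratio 1282 higher and 1158 lower, and replicates 4 and 5 of 3 uM alone 1262 lower. The change with time gave 1435 upward and 1252 downward with array weights, 94 and 88 at 0.01, 119 and 68 at 1.5-fold, 23 and 38 with the beta-actin ratio, 44 and 59 with replicates 4 and 5 alone, and 70 downward with centring. The cause of these shifts was not tested. Rora reversed to -0.014 (adjusted p = 0.976) and Anxa4 to -0.14 (adjusted p = 0.0424) with the mean of a gene's probe sets. The labels give no replicate numbers, and replicates are numbered in accession order, which pairs nothing. Array numbers in the titles run in sixes; with these runs as a block the calls were 1638 higher and 1282 lower, and arrays of the same run had correlations of deviations from -0.037 to 0.17 between the doses. The GAPDH covariate was chosen after seeing the data.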

Other observations

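Of the genes in the lists, Nupr1, Epcam and Idua were called in opposite directions at the times. Nupr1, a stress-induced nuclear protein, stood at -0.24 ± 0.069 at 48 h and 0.40 at 24 h (0.23 with replicates 4 and 5 of 3 uM alone, adjusted p = 0.024) for 100 uM over 3 uM. Epcam, an epithelial adhesion protein, stood at -0.17 ± 0.057 at 48 h and 0.32 at 24 h (0.16 with replicates 4 and 5 of 3 uM alone, adjusted p = 0.0465). Its 48 h call was lost with centred arrays and without replicate 3 or 4 of 100 uM or replicate 2 of 3 uM (adjusted p up to 0.0887). Idua, a lysosomal enzyme that breaks down glycosaminoglycans, stood at 0.51 ± 0.16 at 48 h and -0.56 at 24 h (-0.21 with replicates 4 and 5 of 3 uM alone, adjusted p = 0.476). Its 48 h call was lost without replicate 1 or 3 of 3 uM (adjusted p up to 0.0728). Abca8a, a lipid transporter, fell at both times, at -1.41 ± 0.23 at 48 h and -2.83 at 24 h (-2.58 with replicates 4 and 5 of 3 uM alone, adjusted p = 2.24e-07).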
